A study of Mus musculus with 12 samples.

Results

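The signal of 8 genes of the IL17, IL13, IL15, IL7 and IL16 cytokine systems was followed in the whole mouse oviduct with and without estrogen receptor alpha. The genes were the receptor chains Il17ra, Il17rb, Il17re and Il13ra2, the ligand and receptor pair Il15 and Il15ra, and the ligands Il7 and Il16. They were taken by symbol, 1 probe set each, out of 45101 probe sets on the array, which name 18194 genes by a symbol of their own. They were chosen by their differences between PMSG-treated ESR1KO oviducts and PMSG-treated WT oviducts, so for that contrast their values are a description and no p is given.

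There were 12 arrays in 4 groups of 3, and the RNA of each array was pooled from 3 to 4 mice on a C57BL/6 background. PMSG-treated ESR1KO and PMSG-treated WT mice received 5 IU of PMSG (pregnant mare serum gonadotropin, which drives follicle growth and ovarian estrogen output) by intraperitoneal injection at 23 days of age, and the tissue was taken 48 h later. ESR1KO and WT mice without PMSG were sampled at 23 days of age, so PMSG cannot be told apart from the difference in age. The ESR1KO groups held ESR1-/- mice with or without ZP3Cre, and the WT groups were their siblings, ESR1flox/- with or without ZP3Cre, which carry 1 floxed and 1 deleted copy of the receptor gene. Zp3 drives Cre in the oocyte. The values were log2 signals, and a mean under 4 was called near background here because the files used carried no detection calls.

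In 9 of the 12 columns the values did not follow the probe identifiers of the table. The row of each gene in those columns was found by matching group differences, and 1998 probe sets were located in all 12 arrays, the 8 genes among them. Medians of the arrays lay between 5.63 and 5.75. PMSG-treated WT replicate 3 correlated at 0.97 with the other arrays of its group, while every other pair within a group reached at least 0.98. Esr1, the targeted gene, averaged 10.43 ± 0.28 in PMSG-treated ESR1KO oviducts, against 12.55 ± 0.31 in PMSG-treated WT oviducts, and 11.20 ± 0.87 in ESR1KO and 12.97 ± 0.07 in WT oviducts (log2 signal, SD, n = 3 each). Its signal was lower in every ESR1KO array, but it stayed far above background, and ESR1KO replicate 2, at 12.13, lay closest to WT. Whether the probes lie outside the deleted part of the gene was not known, so Esr1 is a limited check of the genotype labels. In untreated ESR1KO oviducts the defining markers of the tissue were high: all 7 secretory and all 6 ciliated epithelial markers were above the limit, with Ovgp1, the oviductal glycoprotein, at 15.94 ± 0.04.

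IL17 family cytokines signal through paired receptor chains. IL17RA is the shared chain, IL17RB joins it to bind IL25, IL17RE joins it to bind IL17C, and the adaptor ACT1, encoded by Traf3ip2, carries the signal to NF-kB. IL13RA2 binds IL13 with high affinity, has a short cytoplasmic tail and is known mainly as a decoy. IL15 is held on the cell surface by IL15RA and shown to lymphocytes that carry IL2RB and the common gamma chain, IL7 from stromal and epithelial cells sustains lymphocytes through IL7R, and IL16 attracts CD4-bearing cells.

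On the GRCm38.p6 assembly Il17ra lies at chr6:120463181-120483731 and Il17re at chr6:113458699-113470758. Il17rb lies at chr14:29996168-30008896 and Il13ra2 at chrX:147383478-147429192. Il15ra lies at chr2:11705172-11733985, Il15 at chr8:82331624-82403252, Il7 at chr3:7572028-7613760 and Il16 at chr7:83642819-83746028. RefSeq promoter sequence was matched for 5 of the 8 genes, in 8 windows, one for each annotated start. The 250 bases before the start are shown for Il17rb and Il13ra2 (minus strand) and for Il15ra and Il17re (plus strand). These are 4 receptor genes whose ESR1KO arrays all lay above the WT arrays, with and without PMSG. The Il15ra window shown lies inside the gene span given above. The window of another annotated Il15ra start, chr2:11705043-11705292, held none of the motifs counted below and is not shown. Capitals mark a match to the AP-1 site TGACTCA or its reverse complement TGAGTCA, or, in Il17re, to the estrogen response half-site GGTCA or its reverse complement TGACC.
Il17rb, chr14:30008897-30009146: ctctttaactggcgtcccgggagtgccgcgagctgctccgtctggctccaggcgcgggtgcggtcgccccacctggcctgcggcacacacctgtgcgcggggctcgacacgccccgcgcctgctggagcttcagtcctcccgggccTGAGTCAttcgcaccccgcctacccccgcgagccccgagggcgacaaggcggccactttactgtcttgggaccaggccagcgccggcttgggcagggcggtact
Il13ra2, chrX:147429193-147429442: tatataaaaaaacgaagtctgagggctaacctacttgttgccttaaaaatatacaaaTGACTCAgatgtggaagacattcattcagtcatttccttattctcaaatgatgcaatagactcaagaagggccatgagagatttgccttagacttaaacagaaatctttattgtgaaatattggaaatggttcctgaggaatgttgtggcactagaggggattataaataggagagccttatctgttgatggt
Il15ra, chr2:11705462-11705711: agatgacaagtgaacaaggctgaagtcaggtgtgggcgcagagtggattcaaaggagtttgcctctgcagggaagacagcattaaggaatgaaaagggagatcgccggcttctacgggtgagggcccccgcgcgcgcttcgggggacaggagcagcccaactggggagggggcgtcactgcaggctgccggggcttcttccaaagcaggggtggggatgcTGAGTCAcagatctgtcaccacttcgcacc
Il17re, chr6:113458521-113458770: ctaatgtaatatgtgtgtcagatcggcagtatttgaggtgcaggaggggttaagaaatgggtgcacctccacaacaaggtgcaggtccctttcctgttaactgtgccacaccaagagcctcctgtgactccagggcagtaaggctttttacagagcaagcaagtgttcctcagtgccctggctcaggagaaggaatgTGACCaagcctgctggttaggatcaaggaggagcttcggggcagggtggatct

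Counted from the start, the AP-1 match began at -104 in Il17rb, -193 in Il13ra2 and -30 in the Il15ra window shown. An AP-1 match was in 4 of the 8 windows, the fourth being an Il16 start, and in 4.46% of all 32851 windows of that length. The half-site was in 2 of the 8 windows, Il17re and another Il16 start, and in 35.2% of all windows. The full estrogen response element, which is the half-site followed after 3 bases by its reverse complement, was in 0 of 8 and in 0.0639% of all windows, and the STAT site TTCNNNGAA was in 0 of 8 and in 7.02%. Each motif was sought on both strands. A match says only that these letters are in the window.

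Il17rb was the gene of the 8 with the widest range. On the 3 arrays of each group its log2 signal was 10.10, 10.27 and 10.70 in PMSG-treated ESR1KO oviducts, against 7.15, 6.77 and 5.62 in PMSG-treated WT oviducts. It was 10.26, 10.34 and 11.15 in ESR1KO oviducts, against 8.81, 8.49 and 8.86 in WT oviducts. Both ESR1KO groups lay above both WT groups with no overlap, and PMSG-treated WT lay below WT. The difference between PMSG-treated ESR1KO and PMSG-treated WT was 3.85 ± 0.36 (log2, SE), or 14.4-fold, and 42 of the 45101 probe sets had a higher one.

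Il17re, the chain for IL17C, had the same order of groups. Its log2 signal was 9.65, 9.69 and 9.62 in PMSG-treated ESR1KO oviducts, against 8.13, 8.79 and 7.29 in PMSG-treated WT oviducts. It was 9.81, 9.51 and 10.29 in ESR1KO oviducts, against 9.08, 9.12 and 9.08 in WT oviducts. ESR1KO and PMSG-treated ESR1KO overlapped, and every other neighbour in the order was separated. The probe set has the suffix _s_at, which marks probes that can match transcripts of more than 1 gene.

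Il17ra, the shared chain, had another order. Its log2 signal was 7.50, 7.57 and 7.49 in PMSG-treated ESR1KO oviducts, against 8.20, 8.72 and 9.13 in PMSG-treated WT oviducts. It was 7.54, 7.48 and 7.42 in ESR1KO oviducts, against 7.63, 7.58 and 7.56 in WT oviducts. PMSG-treated WT stood above the other 3 groups, whose 9 arrays all lay between 7.42 and 7.63. The difference between PMSG-treated ESR1KO and PMSG-treated WT was -1.17 ± 0.22, with -0.94 when PMSG-treated WT replicate 3 was left out and -1.41 when replicate 1 was.

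Il13ra2 was high in both ESR1KO groups. Its log2 signal was 8.18, 8.10 and 8.29 in PMSG-treated ESR1KO oviducts, against 4.95, 5.99 and 7.14 in PMSG-treated WT oviducts. It was 8.26, 7.30 and 7.25 in ESR1KO oviducts, against 5.70, 5.41 and 5.61 in WT oviducts. The 3 PMSG-treated WT arrays spread more widely than those of any other group, with replicate 3 the highest, and overlapped WT. The difference between PMSG-treated ESR1KO and PMSG-treated WT was 2.17 ± 0.46, with 2.72 when that replicate was left out and 1.63 when replicate 1 was.

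**Figure D1:**
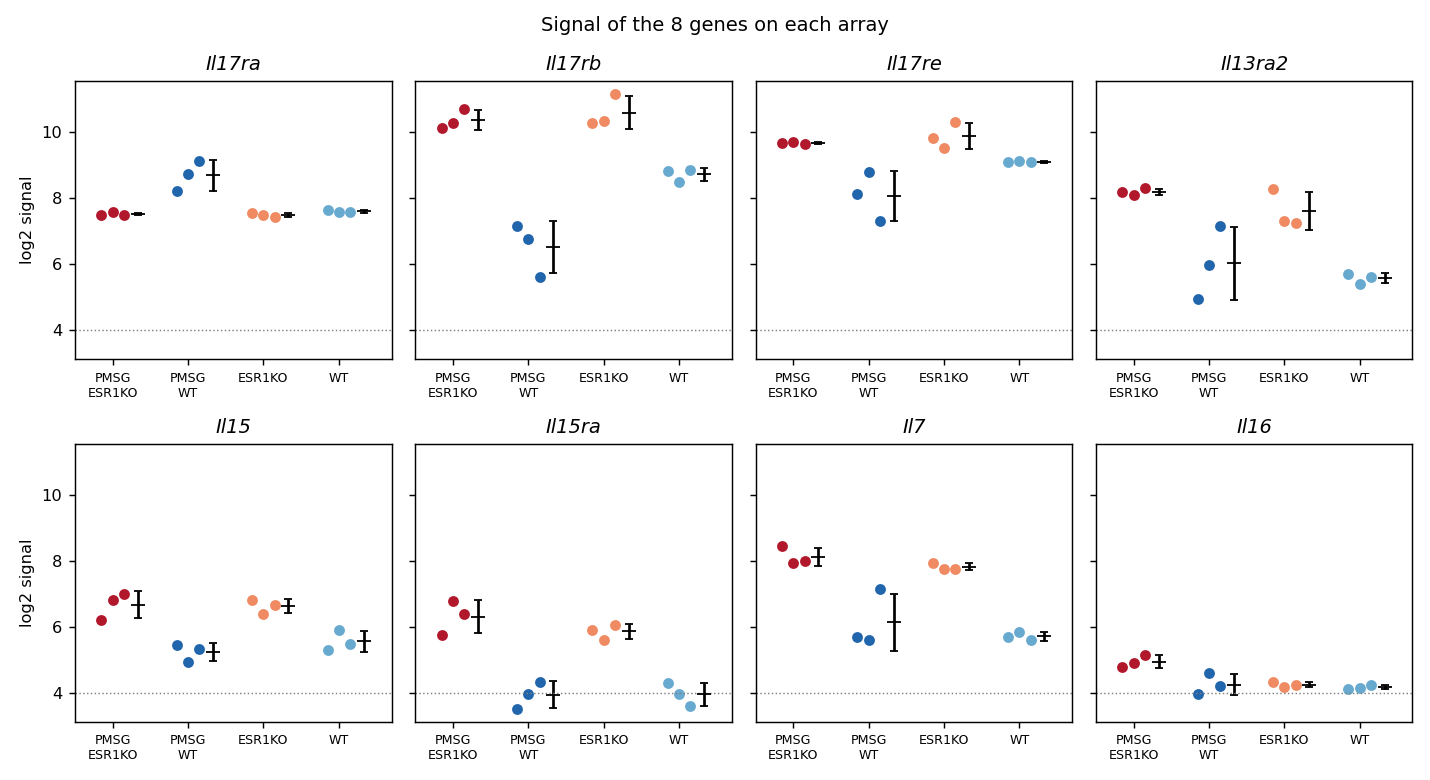
Log2 signal (vertical axis) of each of the 8 genes on every array (points), by group, with the group mean and SD in black (n = 3); the dotted line is the near-background limit of 4. Il17rb, Il17re, Il13ra2, Il15, Il15ra and Il7 are higher in both ESR1KO groups than in both WT groups, Il17ra is highest in PMSG-treated WT oviducts, and Il16 lies close to the limit in all 4 groups.

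Il15 and its private receptor chain Il15ra both separated the genotypes. Il15 had a log2 signal of 6.20, 6.82 and 6.99 in PMSG-treated ESR1KO oviducts, against 5.44, 4.94 and 5.33 in PMSG-treated WT oviducts. It had 6.80, 6.39 and 6.65 in ESR1KO oviducts, against 5.29, 5.90 and 5.48 in WT oviducts. The ESR1KO groups did not overlap the WT groups, and within each genotype the groups with and without PMSG overlapped.

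Il15ra had a log2 signal of 5.77, 6.77 and 6.40 in PMSG-treated ESR1KO oviducts, against 3.51, 3.98 and 4.34 in PMSG-treated WT oviducts. It had 5.91, 5.62 and 6.05 in ESR1KO oviducts, against 4.30, 3.98 and 3.61 in WT oviducts. Both WT groups had means under 4, near background, so a fold change against them may be understated. The differences between PMSG-treated ESR1KO and PMSG-treated WT were 1.43 ± 0.28 for Il15 and 2.37 ± 0.33 for Il15ra.

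Il7, the stromal and epithelial ligand, had a log2 signal of 8.44, 7.92 and 7.99 in PMSG-treated ESR1KO oviducts, against 5.68, 5.59 and 7.13 in PMSG-treated WT oviducts. It had 7.94, 7.75 and 7.76 in ESR1KO oviducts, against 5.69, 5.84 and 5.59 in WT oviducts. All 6 ESR1KO arrays lay above all 6 WT arrays, and PMSG-treated WT replicate 3 stood apart from the other 5 WT arrays. The difference between PMSG-treated ESR1KO and PMSG-treated WT was 1.98 ± 0.39, with 2.47 when that replicate was left out and a lowest value of 1.71 over the other arrays left out in turn.

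Il16, the ligand of CD4, lay close to the near-background limit. Its log2 signal was 4.77, 4.92 and 5.16 in PMSG-treated ESR1KO oviducts, against 3.97, 4.59 and 4.21 in PMSG-treated WT oviducts. It was 4.32, 4.18 and 4.23 in ESR1KO oviducts, against 4.13, 4.15 and 4.24 in WT oviducts. PMSG-treated ESR1KO lay above the other 3 groups, which overlapped one another. The difference between PMSG-treated ESR1KO and PMSG-treated WT was 0.69 ± 0.20.

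In the contrast of PMSG-treated ESR1KO with PMSG-treated WT oviducts, on which the genes had been chosen, 6 were higher and 1, Il17ra, lower by 2-fold or more, and Il16 was under 2-fold. Of all probe sets 2.76% were called higher and 1.72% lower, 4.48% in all, at an adjusted p below 0.05 and that fold, and the count of the 8 genes was fixed by their choice. The median difference of the 8 genes was 1.78, and that of all probe sets 0.01. Nothing is read from these values.

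The contrast of ESR1KO with WT oviducts compared the 6 arrays without PMSG, and the PMSG-treated arrays entered it through the shared estimate of the spread. Il15ra was higher by 1.90 ± 0.31 (limma, adjusted p 0.0163), Il7 by 2.11 ± 0.35 (adjusted p 0.0181) and Il17rb by 1.86 ± 0.36 (adjusted p 0.0408), which is 3.72-fold, 4.31-fold and 3.64-fold. Thus 3 of the 8 genes were called higher by the same rule and 0 lower, where 9.06% of the 1998 located probe sets were higher and 9.11% lower, 18.2% in all. The located probe sets were ones that the study had listed as changed, so shares and medians over them are not those of the whole array. Each adjusted p here is an upper bound, because the fit covered the located probe sets and was adjusted as if all others had failed. The 8 genes had also passed the overall model of the study over the same 12 arrays, so these p-values are not free of that choice.

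Il13ra2 was 2.03 ± 0.46 above WT with an adjusted p of at most 0.0830, and Il15 was 1.06 ± 0.26 above it with an adjusted p of at most 0.135. Il17re differed by 0.78 ± 0.31, Il17ra by -0.11 ± 0.20 and Il16 by 0.07 ± 0.19, with bounds of 1. A bound over 0.05 does not show that the groups were alike. The ESR1KO arrays lay wholly above the WT arrays for 6 genes, where 42.7% of the located probe sets did so, and wholly below them for Il17ra, by a gap of 0.03, where 35.8% did so. The median difference of the 8 genes was 1.46, against 0.15 over the located probe sets.

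The 3 calls rested on few arrays. Leaving out any 1 of ESR1KO replicates 1 and 3 or WT replicates 2 and 3 left 0 of them, and without WT replicate 1 Il15ra alone was called. Without ESR1KO replicate 2, the array with the highest Esr1 signal of its group, Il15ra and Il7 were called, and the difference of Il17rb was 1.99 with an adjusted p of at most 0.0814. Through the shared spread the PMSG-treated arrays also changed calls: Il17rb was not called without any 1 of the PMSG-treated ESR1KO arrays or without PMSG-treated WT replicate 2, and Il13ra2 was called without PMSG-treated WT replicate 1 or 3 (adjusted p at most 0.0251 and 0.00687). Of 20 alternatives, 15 kept an adjusted p under 0.05 for Il15ra, 14 for Il7 and 5 for Il17rb. Over the arrays left out in turn the differences ranged between 1.58 and 2.03 for Il17rb, 1.72 and 2.07 for Il15ra, and 2.05 and 2.17 for Il7.

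**Figure D2:**
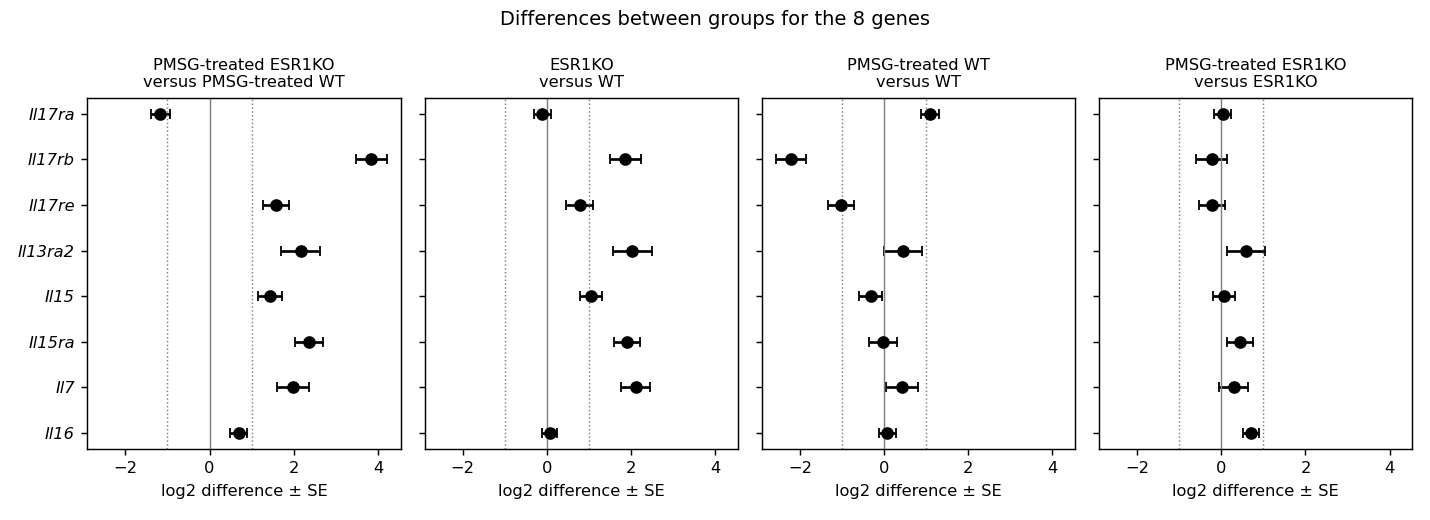
Log2 difference and its standard error (horizontal axis) of the 8 genes in 4 contrasts; dotted lines mark a 2-fold difference. Between ESR1KO and WT without PMSG, the differences of Il17rb, Il13ra2, Il15ra and Il7 were 1.86 to 2.11, and in the contrast of PMSG-treated ESR1KO with ESR1KO every gene lay within 0.71 of 0.

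PMSG-treated WT and WT oviducts differed most in the 3 IL17 receptor chains. Il17rb was lower in PMSG-treated WT by 2.21 on the log2 scale (difference -2.21 ± 0.36, limma adjusted p 0.0562), and 38 of the 45101 probe sets had a lower value. Il17re differed by -1.02 ± 0.31 (adjusted p 0.294) and Il17ra by 1.09 ± 0.22 (adjusted p 0.111). The test called 0 of the 8 genes, where 0.177% of all probe sets were called higher and 0.0732% lower, 0.251% in all. At an unadjusted p under 0.05 there were 3 genes, these chains. The share of all probe sets at that looser threshold was not counted, so nothing is read from that number. Without PMSG-treated WT replicate 3 the difference of Il17rb was -1.76 with an adjusted p of 0.00944, and without replicate 1 Il17rb, at -2.52, and Il17ra, at 1.34, were both called (adjusted p 0.0427 and 0.0361). This contrast shares the PMSG-treated WT arrays with the one on which the genes were chosen.

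The other 5 genes lay close to 0 between PMSG-treated WT and WT oviducts, at 0.45 ± 0.46 for Il13ra2, 0.43 ± 0.39 for Il7, -0.32 ± 0.28 for Il15, -0.02 ± 0.33 for Il15ra and 0.08 ± 0.20 for Il16. The PMSG-treated WT arrays lay wholly above WT for Il17ra, where 5.21% of all probe sets did so, and wholly below WT for Il17rb and Il17re, where 8.32% did so.

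**Figure D3:**
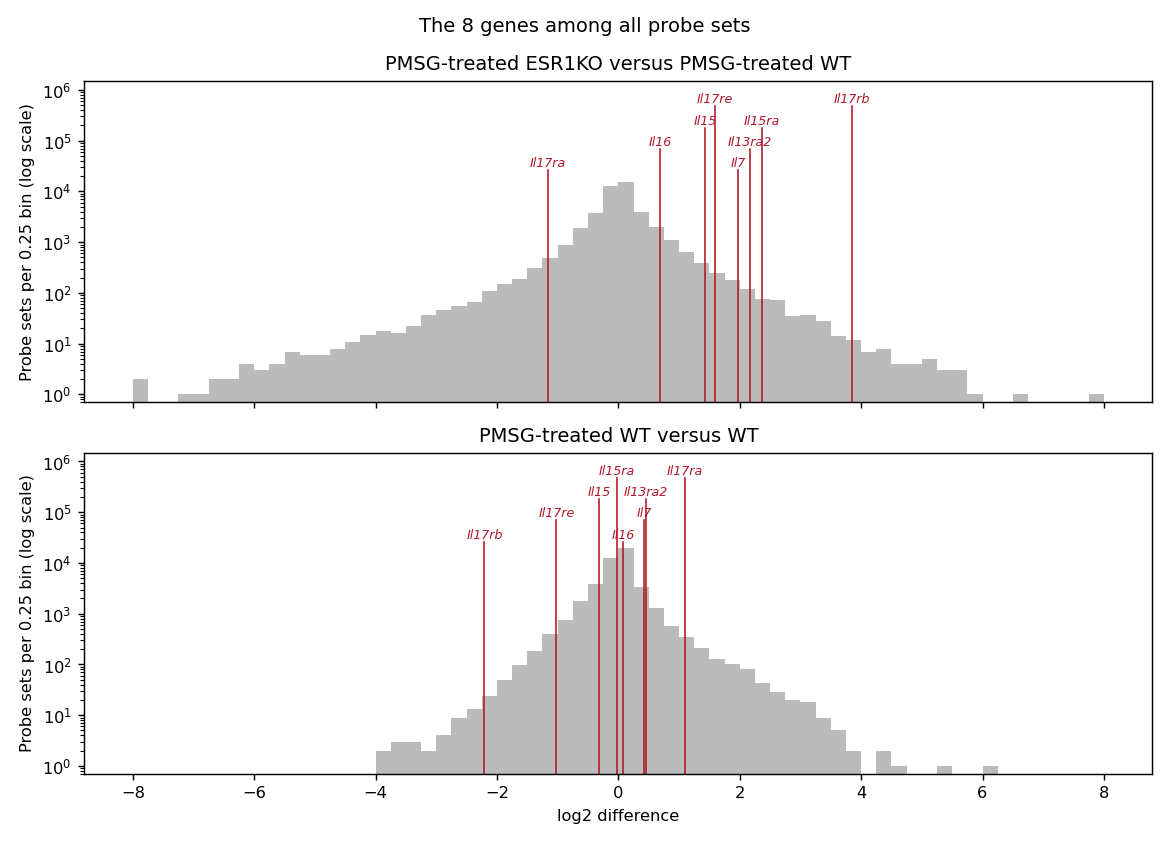
Number of probe sets (log axis) by log2 difference, in bins of 0.25, over all 45101 probe sets in 2 contrasts, with values beyond the axis drawn in the outer bins; red lines mark the 8 genes. Il17rb lies far to the right in the upper contrast, of the PMSG-treated genotypes, at 3.85, and to the left in the lower one, of PMSG-treated WT with WT, at -2.21.

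Between PMSG-treated ESR1KO and ESR1KO oviducts the test called 0 of the 8 genes, where 0.1% of the located probe sets were called. At an unadjusted p under 0.05 there was 1, Il16, and the share of probe sets at that threshold was not counted. The PMSG-treated ESR1KO arrays also entered the contrast on which the genes were chosen. Il16 differed by 0.71 ± 0.19 with an adjusted p bound of 1, and its PMSG-treated arrays lay wholly above those without PMSG, as did 14.6% of the located probe sets, while 6.91% lay wholly below. The other 7 genes overlapped between the groups. The difference in PMSG response between genotypes, the interaction, was called for 0 of the 8 genes, where 0.651% of the located probe sets were called. At an unadjusted p under 0.05 it held 3 genes, Il17rb at 1.98 ± 0.52 (adjusted p bound 0.607), Il17ra at -1.05 ± 0.28 (0.709) and Il16 at 0.62 ± 0.26 (1). The share of probe sets at that threshold was again not counted. The interaction contains the difference between the PMSG-treated genotypes on which the genes were chosen, so its p-values are not free of that choice.

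The 8 genes fell into patterns over the 12 arrays, given as Pearson correlations that follow largely from the 4 groups. Il17rb and Il17re correlated at 0.94, and Il17ra ran against both, at -0.91 with Il17rb and -0.86 with Il17re. Il13ra2 correlated at 0.96 with Il7 and at 0.92 with Il15ra, and Il15 at 0.90 with Il15ra. Among 1862 located probe sets of other genes, the patterns most like that of Il17rb were Gramd3 and Cdh16 (both 0.99), like Il17re Rab15 (0.99) and Rab17 (0.99), and like Il17ra Emilin2 (0.99) and Plcl2 (0.98). Those most like Il13ra2 were 5430407P10Rik (0.97) and Dhrs3 (0.96), like Il15 Erbb2ip and Gpr182 (both 0.96), and like Il15ra Actn3 and Ager (both 0.98). For Il7 they were Apaf1 and Prkd1 (both 0.97), and for Il16 Col4a3 (0.91) and Kdelc2 (0.90).

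The partners of the 8 genes could be read by probe identifier in the untreated ESR1KO arrays, and their level in the other 3 groups was not analysed here. For a partner with several probe sets the one with the highest mean in these arrays was used, which favours a level above the limit. All 5 IL17 receptor chains were above the near-background limit there. Il17rd, an inhibitory member of the family, averaged 11.14 ± 0.29, and Il17rc, the partner of IL17RA for IL17A, 7.31 ± 0.36. Of the 4 IL17 ligands with a probe set only Il17d was above the limit, at 7.03 ± 0.55 on the higher of its 2 probe sets. Il17a (2.40 ± 0.13), Il17b (1.86 ± 0.02) and Il25 (1.65 ± 0.01) were near background, and Il17c and Il17f were not analysed here. The adaptor gene Traf3ip2 averaged 10.30 ± 0.16.

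For the IL13 system the signalling chains Il4ra (8.61 ± 0.28) and Il13ra1 (10.27 ± 0.02) and the kinases Jak1 (11.69 ± 0.33) and Tyk2 (7.65 ± 0.12) were present with Stat6 (10.41 ± 0.09), while Il4 (2.07 ± 0.03) and Il13 (2.23 ± 0.06) were near background. For the IL15 and IL7 systems the ligands Il15 and Il7 were above the limit and the 5 lymphocyte receptor chains measured were not; the common gamma chain gene Il2rg was not analysed here. Il2rb averaged 2.07 ± 0.06, Il7r 2.60 ± 0.16, Il2ra 2.35 ± 0.06, Il9r 1.68 ± 0.06 and Il21r 1.77 ± 0.04, and the kinase Jak3 2.54 ± 0.56. Il2 (2.26 ± 0.07), Il9 (2.04 ± 0.01) and Il21 (2.52 ± 0.11) were near background, whereas Tslp (6.71 ± 0.56), a cytokine that shares IL7R, and its receptor Crlf2 (8.84 ± 0.37) were not. Cd4, the receptor of IL16, averaged 2.67 ± 0.19, and Cd9, which has also been described as one, 13.90 ± 0.47.

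**Figure D4:**
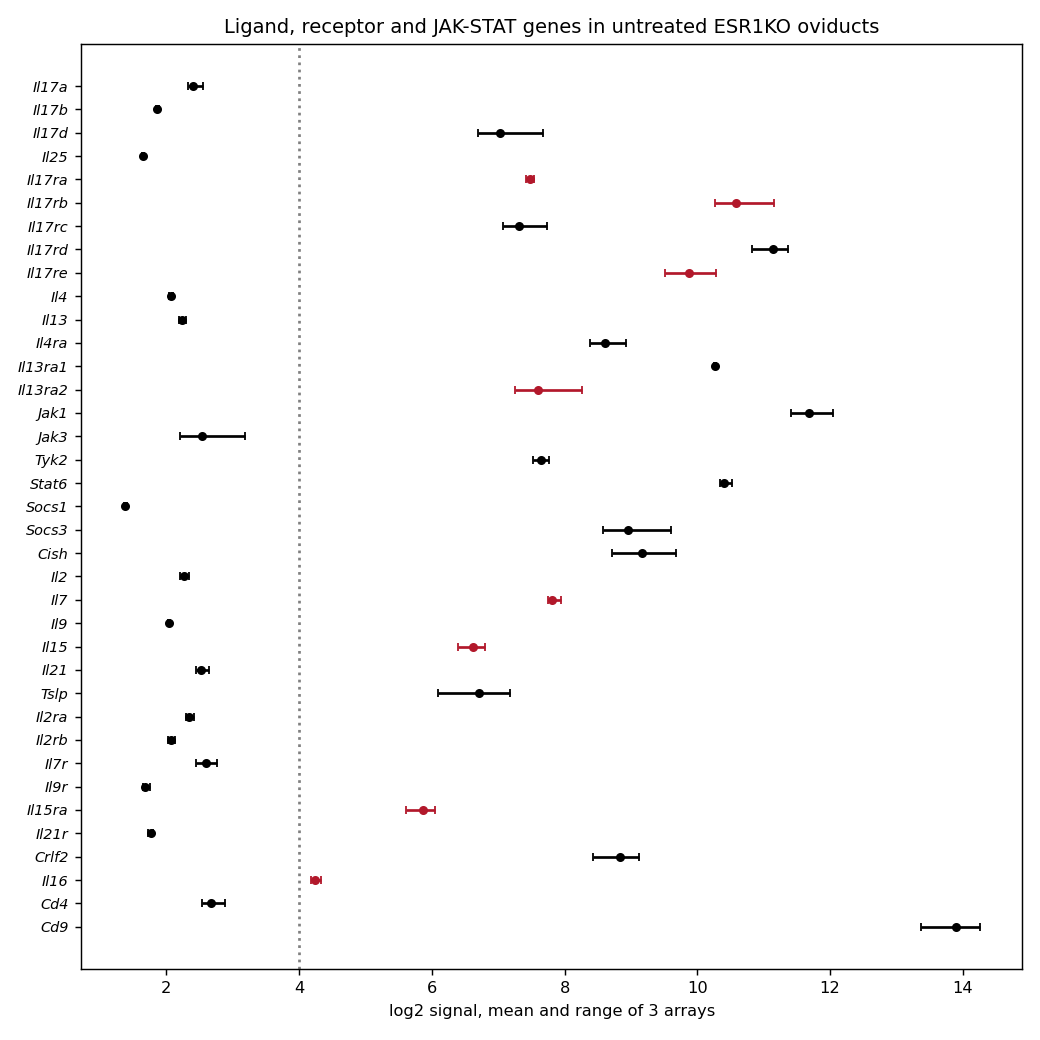
Log2 signal (horizontal axis) of ligand, receptor and JAK-STAT genes in untreated ESR1KO oviducts, as the mean (point) and range (line) of 3 arrays; the 8 genes are in red and the dotted line is the near-background limit of 4. Il17a, Il25, Il4, Il13, Il2rb, Il7r and Cd4 lie below the limit.

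Downstream genes were listed from what is known of these pathways. Of 101 pathway genes, 20 besides the 8 were located in all 12 arrays. They were located because the study had listed them as changed in these arrays, so their counts are not independent evidence of a direction. In PMSG-treated ESR1KO against PMSG-treated WT, 10 of the 20 were higher and 6 lower, where 28.3% of the located probe sets were higher and 20% lower. In ESR1KO against WT, 6 were higher and 2 lower, where 9.06% and 9.11% of the located probe sets were, and in PMSG-treated WT against WT 3 were higher and 0 lower, where 2.7% and 1.1% of the located probe sets were.

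Of 18 genes listed as induced by IL17, 6 were located. Of these 6, 5 were higher and 1 lower in PMSG-treated ESR1KO oviducts than in PMSG-treated WT oviducts. Among all located probe sets 28.3% were higher and 20% lower. In untreated ESR1KO oviducts 9 of the 18 were near background: Cxcl2, Cxcl5, Ccl2, Ccl7, Ccl20, Csf2, Il6, Mmp3 and Muc5b. S100a8 and S100a9, the calprotectin subunits, were higher by 4.38 ± 0.72 (limma adjusted p 0.00766) and 4.16 ± 0.82 (0.0172). Both were near background in both WT groups, with means of 3.72 and 2.76 in PMSG-treated WT oviducts and 3.42 and 3.13 in WT oviducts, so the sizes of their differences are uncertain. Csf3, the granulocyte growth factor, ran the other way, at -4.61 ± 0.35 (0.000154). Its log2 signal was 4.32, 4.08 and 4.25 in PMSG-treated ESR1KO oviducts, against 9.02, 9.38 and 8.08 in PMSG-treated WT oviducts. The PMSG-treated ESR1KO values lay close to the near-background limit of 4, so the size of this difference is uncertain too.

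Without PMSG, 3 of these 6 were higher and 1 lower in ESR1KO than in WT oviducts, beside the 9.06% and 9.11% of located probe sets. Lcn2, the siderophore-binding lipocalin, was higher by 3.42 ± 0.23 (adjusted p bound 0.000237), S100a8 by 3.57 ± 0.70 (0.0424), and Csf3 was at -3.54 ± 0.67 (0.0338). ESR1KO replicate 2, at 7.03, stood apart from the other ESR1KO arrays for Csf3. These were at 4.16 and 4.09, close to the near-background limit, so the size of the Csf3 difference is uncertain here as well. Lcn2 was also higher in PMSG-treated WT oviducts than in WT oviducts, by 1.90 ± 0.21 (adjusted p 0.0113).

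Among located genes that IL4 and IL13 are known to induce, 2 of 5 were higher and 2 lower in PMSG-treated ESR1KO oviducts than in PMSG-treated WT oviducts. The shares of all located probe sets were 28.3% and 20%. Arg1, which splits arginine, had a log2 signal of 5.50, 5.16 and 4.79 in PMSG-treated ESR1KO oviducts, against 8.17, 8.15 and 7.15 in PMSG-treated WT oviducts. It had 5.24, 4.81 and 5.18 in ESR1KO oviducts, against 3.54, 3.03 and 3.56 in WT oviducts. It was the 1 located pathway gene with a called interaction, at -4.38 ± 0.44 (adjusted p bound 0.0123), and was higher in PMSG-treated WT oviducts than in WT oviducts by 4.45 ± 0.33 (0.00210). Clca1, a secreted protein of mucous epithelia, was higher there by 1.10 ± 0.16 (0.0418). In WT oviducts both were near background, Arg1 at 3.38 and Clca1 at 3.49, so the sizes of these differences, and of the interaction of Arg1, are uncertain. The other called genes of this list are named after their values were seen: between the PMSG-treated genotypes Retnla differed by 3.67 ± 0.53 (adjusted p 0.00401), from a near-background mean of 3.45 in PMSG-treated WT oviducts, Mrc1 by 1.00 ± 0.18 (0.0106) and Postn by -1.02 ± 0.19 (0.0142).

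Among 6 located genes of common gamma chain signalling, 2 were higher and 2 lower in PMSG-treated ESR1KO oviducts than in PMSG-treated WT oviducts. The shares of all located probe sets were 28.3% and 20%. Stat5a, the transcription factor downstream of IL2RB and IL7R, had a log2 signal of 3.11, 4.59 and 3.33 in PMSG-treated ESR1KO oviducts, against 9.39, 9.46 and 8.59 in PMSG-treated WT oviducts. It had 3.53, 5.16 and 3.78 in ESR1KO oviducts, against 8.13, 8.43 and 7.96 in WT oviducts. The differences were -5.47 ± 0.40 with PMSG (adjusted p 0.000139) and -4.01 ± 0.48 without (bound 0.00402), which are the 2 contrasts whose printed folds served to find its row. Its mean in PMSG-treated ESR1KO oviducts, 3.68, was near background, so the size with PMSG is uncertain, and another probe set of Stat5a, read in the untreated ESR1KO arrays alone, averaged 7.33 ± 0.42 there. The differences of Il15, Il15ra and Il7 were positive in both contrasts. The other called genes of this list are named after their values were seen. Between the PMSG-treated genotypes Cish differed by 1.56 ± 0.37 (limma adjusted p 0.0382), Pik3r1 by 1.25 ± 0.14 (0.00103) and Irs1 by -1.32 ± 0.11 (0.000229).

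**Figure D5:**
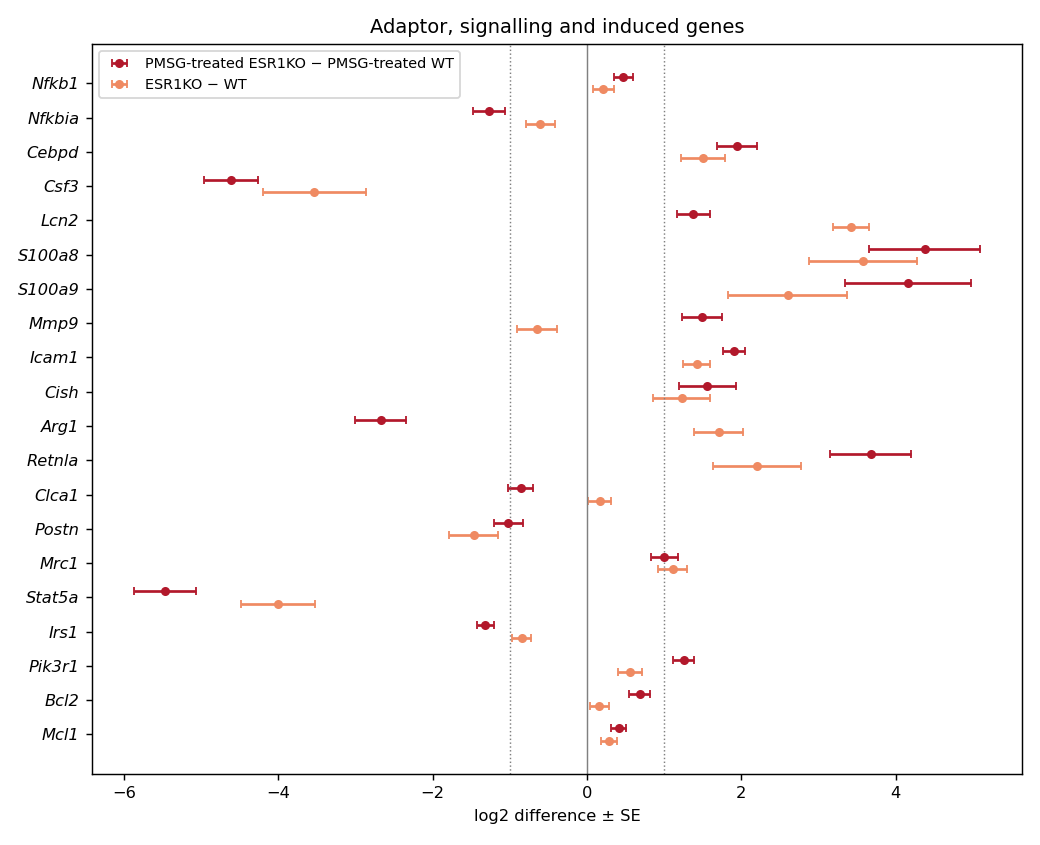
Log2 difference and its standard error (horizontal axis) for the 20 located adaptor, signalling and induced genes, with PMSG (dark red) and without (orange); dotted lines mark a 2-fold difference. Stat5a and Csf3 lie far to the left and S100a8 and S100a9 far to the right in both contrasts, and Arg1 lies on opposite sides.

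Some markers of blood cells differed in the same contrasts, and none of the T cell, NK cell or pan-leukocyte lists was located in all 12 arrays. In bulk tissue, fewer cells of a type and less RNA per cell cannot be told apart. In untreated ESR1KO oviducts all 7 T cell markers and all 8 NK cell markers with a probe set were near background, and 7 of 8 macrophage markers were above the limit. Of the 8 macrophage markers 2, Csf1r and Mrc1, were located, and their summed linear signal ranged between 3165 and 3776 in PMSG-treated ESR1KO oviducts and between 1106 and 1792 in PMSG-treated WT oviducts, and between 2003 and 2766 in ESR1KO and between 1069 and 1260 in WT oviducts. Mrc1 also stands in the list of genes induced by IL4 and IL13. Another probe set of Csf1r averaged 11.33 ± 0.41 in untreated ESR1KO oviducts, beside 9.51 ± 0.25 for the one reported. Of the 7 neutrophil markers 2 were located, S100a8 and S100a9, which also stand in the list of IL17-induced genes. Their sum ranged between 119 and 872 in PMSG-treated ESR1KO oviducts and between 14.2 and 30.7 in PMSG-treated WT oviducts, and between 139 and 311 in ESR1KO and between 13.6 and 34.1 in WT oviducts, while Mpo, Elane, Csf3r and Cxcr2 were near background in untreated ESR1KO oviducts. The sums did not overlap between genotypes for either list, with or without PMSG. All 4 genes were called higher with PMSG, where 28.3% of the located probe sets were. Without it Mrc1 and S100a8 were called, where 9.06% of the located probe sets were. Csf1r (0.61 ± 0.24, adjusted p bound 1) and S100a9 (2.60 ± 0.77, bound 0.300) were not. Located markers were ones that the study had listed as changed, so these counts and sums are not independent evidence of a direction. The rest of both lists was not read outside untreated ESR1KO oviducts. Kit, 1 of 6 mast cell and eosinophil markers, ran the other way, at -2.26 ± 0.37 with PMSG (adjusted p 0.00805) and -1.62 ± 0.41 without (bound 0.142). The other 5 of that list were near background in untreated ESR1KO oviducts. Another probe set of Kit averaged 9.40 ± 0.63 there, beside 5.89 ± 0.64 for the one reported. Cd79b, 1 of 4 B cell markers, was at 1.77 ± 0.24 (0.00323) and 1.67 ± 0.35 (bound 0.0599), with both WT groups near background. Cd79a and Ms4a1, of the same list, were near background in untreated ESR1KO oviducts.

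Other cell types were covered by few located markers, which the study had also listed as changed. Actg2, 1 of 6 smooth muscle markers, had a linear signal of 980 to 3783 in PMSG-treated ESR1KO oviducts and 5474 to 6997 in PMSG-treated WT oviducts. It had 587 to 1468 in ESR1KO and 3513 to 6161 in WT oviducts. Its difference was not called with PMSG (-1.64 ± 0.42, limma adjusted p 0.0543) and was called without (-2.26 ± 0.45, bound 0.0457). Of 6 stromal markers Lum and Pdgfra were located. In PMSG-treated ESR1KO oviducts Lum differed by -2.10 ± 0.31 (adjusted p 0.00464) and Pdgfra by 1.49 ± 0.16 (0.000889) against PMSG-treated WT oviducts. Without PMSG, Lum differed by -2.44 ± 0.42 (bound 0.0226) and Pdgfra by 1.12 ± 0.20 (bound 0.0266). The endothelial markers Pecam1 and Kdr, 2 of 5, summed to 230 to 307 in PMSG-treated ESR1KO oviducts and 377 to 471 in PMSG-treated WT oviducts. Without PMSG they summed to 125 to 198 in ESR1KO and 381 to 511 in WT oviducts. Only Pecam1 was called, at -1.26 ± 0.31 with PMSG (limma adjusted p 0.0472) and -3.24 ± 0.53 without (bound 0.0163). Kdr was not called, at -0.23 ± 0.21 with PMSG (adjusted p 0.731) and -0.51 ± 0.19 without (bound 0.851). Lrrn4, 1 of 4 mesothelial markers, had 1471 to 1618 in PMSG-treated ESR1KO oviducts and 404 to 864 in PMSG-treated WT oviducts, and 1144 to 1271 in ESR1KO and 341 to 597 in WT oviducts. The part of any of these markers in the differences of the 8 genes was not tested.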

How the data were processed

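Total RNA of whole oviducts was hybridised to Affymetrix whole-genome mouse arrays, 12 in all. Per the labels and the submitters' processing notes, the deposited values are log2 signals made by the authors with Partek 6.6 by GCRMA, with quantile normalization and median polish. The raw array files were not used here, and the number of arrays limits the precision. Different mice were pooled for each replicate.

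The untreated ESR1KO columns followed the probe identifiers and the other 9 columns shared another, unexplained row order. Rows were located through the held part of the study's supplementary table: its printed fold changes and, among candidate rows of the untreated ESR1KO columns, its printed p-values served only as a key to the row, and every value reported is from the deposited table. All 1997 rows held were located, each at a distinct row, within 8.76e-05 log2 units, and 99.6% of those with a symbol kept it; Stat5a was added through 2 printed folds. The authors' fold changes and p-values were not used otherwise.

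Contrasts were fitted with limma 3.58.1 (R 4.3.3) with a variance trend and Benjamini-Hochberg adjustment. The 9 columns were fitted over all 45101 probe sets. Contrasts with untreated ESR1KO were fitted on the 1998 located probe sets with the variance prior of that fit, and adjusted for 45101 tests. A call needed an adjusted p below 0.05 and a 2-fold difference (no fold minimum for the interaction). The fit was tested on simulated data. Tables and figures were made with Python and pandas. Named genes were the 8 genes, the measured ligands and receptors of their systems, up to 4 called pathway genes per contrast by size of the difference, the 2 genes most like each of the 8, and Esr1. Genes, lists and motifs were chosen with earlier results of these data known. For levels read in the untreated ESR1KO arrays alone, a gene outside the 8 was given by its probe set with the highest mean there. The alternatives were the unmoderated two-way model of the methods, a fit with no variance trend, a filter on mean signal of 4, repeated quantile normalization, median centring, a replicate block, only the 6 arrays compared, no fold minimum, and each array left out. Promoter sequences are those of RefSeq on GRCm38.p6.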

Additional observations from a re-analysis of the deposited data

How the results depend on the processing

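The differences of the 8 genes between PMSG-treated ESR1KO and PMSG-treated WT kept their direction under every alternative run. The genes were chosen on this contrast and their arrays did not overlap in it. Leaving out an array could therefore not turn a direction, and nothing is read from this. Of all probe sets in this contrast, 11.5% lay wholly higher and 8.08% wholly lower. The count of probe sets called there was 2022, and it was 1255 with the unmoderated model of the methods, 1313 when only the 6 arrays were fitted, 3065 with no fold minimum, and 1248 to 2422 with each array left out. In ESR1KO versus WT it was 363, and 139, 152 and 104 to 500 under the unmoderated model, the 6 arrays and the arrays left out; 3 of the 8 genes were called, 0 under the unmoderated model and 0 to 4 with an array left out. In PMSG-treated WT versus WT it was 113, and 19, 179, 36 and 41 to 346 under the unmoderated model, mean signal at least 4, the 6 arrays and the arrays left out. There 0 of the 8 genes were called, 1 with mean signal at least 4 or with arrays centred on their medians (Il17rb), and 0 to 2 with an array left out. In PMSG-treated ESR1KO versus ESR1KO it was 2, and 0 with no variance trend, the unmoderated model, mean signal at least 4 or the 6 arrays, 3 with no fold minimum and 0 to 6 with an array left out. For the interaction it was 13, 1 under the unmoderated model, and 1 to 44 with an array left out. The causes were not tested.

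With a replicate block, 1926, 329, 46, 2 and 10 probe sets were called in these 5 comparisons, and Il17rb lost its call in ESR1KO versus WT (adjusted p bound 0.110). Deviations of samples with the same number correlated between -0.124 and 0.356. Samples with different numbers were not compared, so these values cannot show whether the numbers pair the samples. The main fit did not pair them.

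Values near 0 changed sign. In PMSG-treated WT versus WT, Il15ra was 0.0057 with arrays centred, and with arrays left out it ranged between -0.22 and 0.20, Il16 between -0.086 and 0.22, Il13ra2 between -0.11 and 0.99 and Il7 between -0.069 and 0.70. In PMSG-treated ESR1KO versus ESR1KO, Il15 ranged between -0.11 and 0.29 and Il17rb between -0.40 and 0.062. In the interaction, Il13ra2 ranged between -0.40 and 0.69 and Il7 between -0.40 and 0.37. Over all alternatives the adjusted p bound in ESR1KO versus WT ranged between 0.00290 and 0.209 for Il17rb, 0.00649 and 0.0912 for Il15ra, 0.000213 and 0.0903 for Il7, and 0.00687 and 0.360 for Il13ra2. Location by a sort of the identifiers and the use of other probe sets in the 9 columns were not run, since no sort placed the rows. Signals near 4 limit what can be said of Il16 and Il15ra.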

Other observations

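Other probe sets of 5 of the 8 genes could be read in the untreated ESR1KO arrays. For Il17ra a second probe set averaged 3.84 ± 0.44, near background, beside 7.48 ± 0.06 for the one reported. For Il17re 2 others averaged 8.20 ± 0.11 and 6.96 ± 1.51, and on the last of these replicate 3, at 8.70, stood above replicates 1 and 2, at 6.03 and 6.15. For Il15ra another averaged 6.49 ± 0.13, for Il7 4.03 ± 0.33, and for Il16 3 others averaged 6.26 ± 0.09, 2.17 ± 0.10 and 2.44 ± 0.15. Levels of different probe sets are not comparable with each other, and these were not located in the other 9 arrays.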
